A study of Mus musculus with 4 samples.

Results

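The genes of oxidative phosphorylation were followed in nuclei of the mouse RV. In this process, complexes I to IV of the mitochondrial respiratory chain pass electrons to oxygen and pump protons across the inner membrane, and complex V uses the proton gradient to make ATP. Complex II is encoded in the nucleus alone, whereas complexes I, III, IV and V combine nuclear subunits with a few subunits from mitochondrial DNA. Cardiac muscle relies on this pathway for most of its ATP, and CMs are known for their dense mitochondria. Transcripts of mitochondrial DNA are made and kept in mitochondria, and finished mRNAs of the nuclear subunits lie mainly in the cytoplasm, so neither kind is expected to be rich in clean nuclei.

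The set held 49 of the 27998 genes in the files, taken by symbol, with no threshold on a measured value. Of these, 8 are encoded in mitochondrial DNA (names starting with mt-) and 41 in the nucleus. Of the nuclear members, 16 were grouped under complex I by their Nduf names, Ndufa4 among them. The others were 4 subunits of complex II, 6 of complex III, 8 of complex IV, 6 of complex V and Slc25a4. Slc25a4 is the carrier that exchanges ADP and ATP across the inner membrane. All 49 were present, held 9473638 UMIs together, and passed the filter on low counts in CMs, endothelial cells (ECs), fibroblasts and myeloid cells. Short nuclear subunit genes have many processed copies in the genome and mitochondrial genes have nuclear copies, so reads shared with such copies cannot be assigned with certainty.

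The mice were of strain C57/BL6J and genotype WT. RVVO mice had a fistula made between the abdominal aorta and the inferior vena cava at P7, and sham-operated mice had the surgery without the puncture. RVs were frozen at P21, nuclei were isolated, and 2 libraries per group were made with 10x 3′ v3 chemistry. How many mice went into each library, and which injection (cyclosporine A or saline) these pups received after surgery, if any, was not stated, so p-values measure only the spread between these libraries. Values are listed in the order sham 1, sham 2, RVVO 1 and RVVO 2.

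The libraries held 15568, 15430, 8700 and 13392 barcodes, with 51010039 to 64739206 UMIs per library. Median depth was 2311, 2262, 4705 and 3378 UMIs per barcode, higher in both RVVO libraries. After removal of 5885 likely doublets, 47203 barcodes remained, and 37646 of them were assigned to a lineage by marker genes. Xist was at 1378 and 1468 CPM (a gene's UMIs divided by all UMIs, times 1e6) in the sham libraries and at 0.819 and 0.583 CPM in the RVVO libraries, and the Y-linked Ddx3y showed the reverse, so in every group difference given here sex and surgery cannot be told apart. Pairs of libraries shared 28 to 70 barcode sequences. The CMs of sham 1 lay in another cluster than those of the other libraries. Cluster 8 held 73.0% of the CMs of sham 1, whereas cluster 19 held 62.7%, 89.9% and 46.5% of those of sham 2, RVVO 1 and RVVO 2, and cluster 24 held 41.4% of those of RVVO 2. Cluster 13 held 12.5% and 12.8% of the sham CMs and 4.05% and 1.36% of the RVVO CMs. The ECs of all libraries were mostly in cluster 4, with 65.6% to 75.03%. The rest differed by group, since cluster 0 held 9.3% and 12.3% of the sham ECs and 1.61% and 0.37% of the RVVO ECs, and cluster 17 held 6.98% and 6.27% against 15.1% and 23.5%.

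Several subunits exist as a muscle form and a widely expressed form, and the pairs are compared between lineages below. Cox7a1 and Cox8b are the muscle forms of 2 complex IV subunits, and Cox7a2 and Cox8a are their widely expressed partners. The 120 bases before the RefSeq start of these genes in GRCm38.p6 are shown because the pairs differ in base composition there. They lie at chr7:30184051-30184170 on the plus strand for Cox7a1, and on the minus strand at chr9:79759854-79759973 for Cox7a2, chr7:140900447-140900566 for Cox8b and chr19:7217617-7217736 for Cox8a. Capitals mark a motif match, GGGCGG (SP1) in Cox7a2 and CAGCTG (an E-box) in Cox8b.
Cox7a1: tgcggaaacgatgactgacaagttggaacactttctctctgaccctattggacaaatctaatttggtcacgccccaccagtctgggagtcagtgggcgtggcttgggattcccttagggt
Cox7a2: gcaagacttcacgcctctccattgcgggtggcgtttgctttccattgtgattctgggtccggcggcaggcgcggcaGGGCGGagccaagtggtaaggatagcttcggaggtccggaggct
Cox8b: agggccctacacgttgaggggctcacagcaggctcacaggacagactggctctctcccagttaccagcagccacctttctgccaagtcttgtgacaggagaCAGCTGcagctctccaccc
Cox8a: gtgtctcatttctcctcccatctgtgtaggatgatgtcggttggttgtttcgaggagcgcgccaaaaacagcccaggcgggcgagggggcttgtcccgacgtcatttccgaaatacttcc

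These stretches held 4 CpG for Cox7a1 and 1 for Cox8b, against 10 for Cox7a2 and 9 for Cox8a. Their GC content was 51.7%, 60.0%, 62.5% and 55.8%, respectively. The muscle form thus had the lower GC content for Cox7a1 and the higher for Cox8b. The same stretches of Slc25a4 and Slc25a5, not printed, hardly differed, with 11 and 12 CpG and 71.7% and 72.5% GC. Both strands of the 250 bases before the start were then searched for 6 motifs in all 27025 RefSeq promoters and in the 30 of 41 nuclear members that the table holds. The motif of NRF1, a known regulator of respiratory genes, was found in 3.9% of all promoters and in 10.0% of members, which were Ndufa5, Sdha and Sdhd. CCGGAAG, bound by ETS factors, was in 7.1% of all promoters and 10.0% of members, and AAGGTCA, bound by estrogen-related receptors, in 4.1% and 3.3%. GGGCGG was in 32.9% and 26.7%, TATAAA in 13% and 3.3%, and CAGCTG in 12.8% and 13.3%. A match is a description of letters and not a measured site.

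The question of the lineages was whether the levels of these genes belong to the nuclei of each lineage. In CMs the 8 mt- members gave 0.841%, 0.596%, 0.471% and 0.572% of all UMIs. In ECs they gave 4.75%, 3.53%, 3.09% and 2.83%, higher than in the CMs of the same library by 5.65, 5.93, 6.55 and 4.95 times. Few barcodes carried much of the EC values, since the 3.67% to 6.04% of ECs with at least 10% mitochondrial UMIs held 44.2% to 58.9% of the mitochondrial UMIs of the ECs. Without such barcodes the share was 2.15%, 2.10%, 1.70% and 1.67% in ECs and 0.556%, 0.454%, 0.350% and 0.405% in CMs. Over all mt- genes in the files, not the 8 members alone, the median EC barcode had 1.73%, 1.89%, 1.36% and 1.08%. In fibroblasts the 8 mt- members gave 1.63%, 1.20%, 1.13% and 1.21%. Among CMs, ECs, fibroblasts, myeloid cells and pericytes, CMs thus had the lowest mt- share in each of the 4 libraries. In mt- UMIs per barcode CMs were not the lowest in sham 1 and sham 2. Myeloid cells had 0.992, 0.993, 1.29 and 1.43 times the mt- UMIs per barcode of CMs. Fibroblasts had 1.09, 1.003, 1.19 and 1.19 times, and ECs 2.61, 2.27, 2.51 and 2.55 times. The share in ECs exceeded that in CMs by 2.93 ± 0.711 percentage points (SD, n = 4), with p = 0.125 by an exact two-sided sign-flip test, the smallest p that 4 libraries allow. Myeloid cells stood between fibroblasts and ECs with 2.14%, 1.53%, 1.31% and 1.41%. Pericytes varied most between libraries among these 5 lineages, with 4.71% in sham 1 and 1.41% to 1.91% in the others. Of the rarer lineages, B cells (21 to 77 barcodes per library) had 0.516%, 1.80%, 0.421% and 0.527%, below the CMs of the same library except in sham 2.

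The 41 nuclear members made up 1.35%, 0.873%, 0.919% and 1.29% of UMIs in CMs. Their share was again higher in ECs, with 2.32%, 1.48%, 1.66% and 2.03%, or 1.72, 1.70, 1.81 and 1.57 times that in CMs. Counted per barcode the order turned. CMs had 72.5, 48.4, 80.5 and 69.5 UMIs of the nuclear members per barcode, and ECs had 57.7, 31.5, 55.7 and 56.1. ECs therefore had the larger share of UMIs but fewer UMIs per barcode in 4 of 4 libraries, by 17.5 ± 5.09 UMIs (exact sign-flip test, p = 0.125). EC barcodes also held fewer UMIs of all genes, with a median of 1812 to 2990.5 against 4495 to 7881.5 in CMs.

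**Figure D1:**
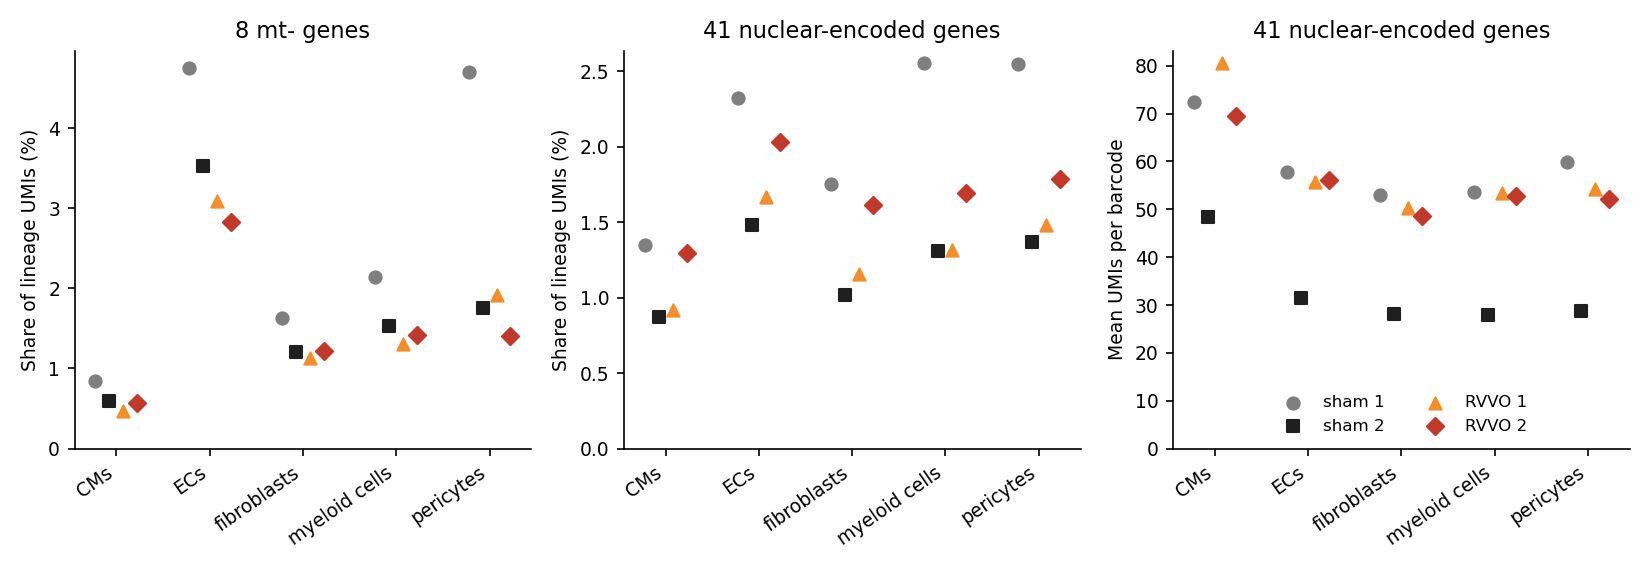
The points are libraries, with the share of lineage UMIs (%) of the 8 mt- genes on the left and of the 41 nuclear-encoded genes in the middle, and the mean UMIs per barcode of the nuclear-encoded genes on the right, in 5 lineages. CMs are lowest of these lineages in mt- share in every library (0.471% to 0.841%), and sham 2 is lowest in nuclear-encoded UMIs per barcode in each of the 5 lineages.

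Counted per barcode, the nuclear members varied less than the mt- members between the other lineages of a library. Over the 10 or 11 named lineages other than CMs with at least 20 barcodes, their mean number per barcode ran from 53.0 to 69.5 in sham 1 and from 27.0 to 39.8 in sham 2. In RVVO 1 it ran from 47.8 to 89.4, and in RVVO 2 from 46.4 to 69.7. The highest lineage was 1.31, 1.47, 1.87 and 1.5 times the lowest, whereas for the mt- members it was 3.73, 2.29, 2.71 and 5.49 times the lowest. Sham 2 had the lowest median over these lineages, with 28.9 UMIs per barcode against 55.0 to 58.4 in the other libraries. Transcripts known mainly from CMs showed the same low value in sham 2. The 11 sarcomere and metabolic mRNAs of CMs (such as Myh6, Tnni3 and Mb) had a median over those lineages of 71.1, 33.1, 73.8 and 62.2 UMIs per barcode, and 140, 110, 202 and 124 in CMs. Tnni3, cardiac troponin I, was at 2067, 1356, 1648 and 1931 CPM in ECs and at 1361, 998, 979 and 1227 CPM in CMs. Of the 11 genes, 8 were above CMs in ECs in every library and 3 (Myh6, Tnnc1 and Tnnt2) were below. CM mRNA was thus counted in EC barcodes, and its part in the EC values of the members was not tested.

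The comparison was therefore repeated between barcodes of like depth. Among barcodes with 1000 to 2000 UMIs, the share of nuclear members in ECs was 1.02, 0.935, 0.994 and 0.996 times that in CMs of the same library. With 2000 to 4000 UMIs it was 1.08, 1.03, 1.10 and 1.11 times. At these depths ECs and CMs thus had nearly equal shares of the nuclear members. The class of 1000 to 2000 UMIs held few CMs, 282, 336, 73 and 232 of the 2528 to 4409 per library. It held 1674, 1840, 373 and 637 ECs. Such shallow CMs need not stand for all CMs. Myeloid cells with 2000 to 4000 UMIs had 1.07, 0.884, 0.986 and 1.01 times the CM share, and fibroblasts had 0.936, 0.822, 0.900 and 0.925 times. The 11 CM mRNAs were lower in ECs than in CMs at 1000 to 2000 UMIs, with ratios of 0.864, 0.683, 0.838 and 0.804. In deeper barcodes the EC share was higher, by 1.20, 1.35, 1.23 and 1.28 times with 4000 to 8000 UMIs. The mt- members kept a difference, with EC to CM ratios of 4.47, 3.78, 2.73 and 3.43 at 2000 to 4000 UMIs. At 1000 to 2000 UMIs those ratios were smaller, 1.95, 1.58, 1.20 and 2.25.

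The counts of nuclear members rose little with depth. In the CMs of sham 1 they fell from 4.40% of UMIs in barcodes under 1000 UMIs to 0.923% in barcodes with 8000 UMIs or more, while the mean number per barcode went from 39.7 to 103.9. CMs of the deepest class had 7.26, 7.86, 7.79 and 6.31 times the UMIs of those with 1000 to 2000. The 27 nuclear members whose gene spans under 10 kb from start to end rose by a median of only 1.69, 1.85, 1.73 and 1.77 times between these classes. The 9 members spanning at least 20 kb rose by 4.49, 5.35, 5.22 and 4.0 times. Malat1, a nuclear long noncoding RNA, rose by 13, 13.2, 15.2 and 8.67 times, and Ryr2, the calcium release channel and a very long CM gene, by 10.3, 10.1, 12.4 and 8.87 times. Tnni3, which encodes cardiac troponin I, rose by 2.10, 2.57, 2.47 and 2.09 times. Myh6, another of the CM mRNAs, rose by 4.41, 5.36, 4.94 and 4.24 times. The median of the long members thus lay above Tnni3 and below Ryr2 and Malat1 in every library. It was close to Myh6, above it in sham 1 and RVVO 1 and below it in sham 2 and RVVO 2. The median of the short members lay below both Tnni3 and Myh6. Uqcr11, a small complex III subunit, was at the low end (median 1.29 times) and Ndufs4, an accessory subunit of complex I, at the high end (median 7.03 times). Across the 41 members Spearman's rho of span and rise was 0.719 to 0.778 in the 4 libraries, a description of genes that share libraries and barcodes. The order was weaker in other lineages, with rho of 0.684, 0.188, 0.528 and 0.543 in ECs and 0.596 to 0.646 in the 3 libraries with enough deep fibroblasts. In ECs the short members rose by 2.68, 4.16, 2.48 and 2.45 times and the long members by 3.63, 4.55, 3.54 and 4.02 times, so in sham 2 they hardly differed.

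The mt- members rose faster than depth in ECs. In sham 1 ECs they rose from 17.8 UMIs per barcode under 1000 UMIs to 34.7, 103, 413.9 and 1359 in the next classes, or from 1.97% to 14.1% of UMIs. Between 1000 to 2000 and 8000 UMIs or more, the median rise of the 8 genes in ECs was 39.8, 20.05, 23 and 9.63 times, more than the rise in depth of 6.43, 6.40, 6.97 and 5.42 times. In CMs it was 4.79, 1.43, 2.26 and 2.92 times, less than the rise in depth. Deep EC barcodes were few, with 49, 28, 38 and 22 in the highest class.

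**Figure D2:**
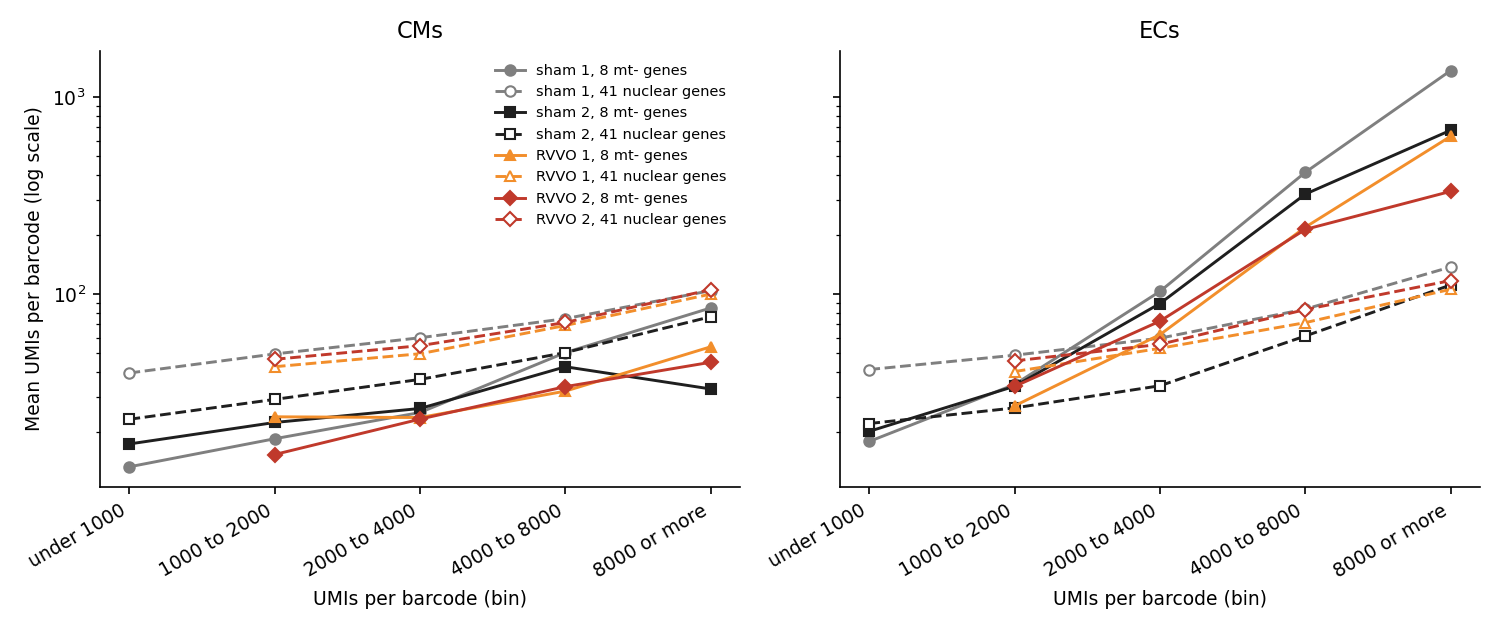
Mean UMIs per barcode (log scale) of the 8 mt- genes (filled symbols, full lines) and the 41 nuclear-encoded genes (open symbols, broken lines) by class of UMIs per barcode, 1 line per library, in CMs on the left and ECs on the right. In ECs of sham 1 the mt- line climbs from 17.8 to 1359 UMIs, while the nuclear-encoded lines stay between 22 and 137 in all libraries.

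The length of a gene also ordered the members between lineages. Over barcodes of all depths, 33 of the 41 nuclear members had a higher CPM in ECs than in CMs in 4 of 4 libraries. A lower one was found for 4, and CM barcodes were deeper. The 12 members spanning under 5 kb had a median EC to CM ratio of 2.27, from 1.68 (Slc25a4) to 2.58 (Ndufa1), and all 12 were above CMs in every library. In contrast, the 8 mt- members had median ratios from 5.20 (mt-Nd4) to 6.57 (mt-Atp6). The 15 members of 5 to 10 kb had a median ratio of 1.94. The 5 members of 10 to 20 kb had 1.66, and the 9 members of 20 kb or more had 0.955. All 4 members lower in ECs in every library were in this last class. They were Ndufs4 (ratio 0.518), Ndufs1, the iron-sulfur subunit of complex I (0.683), Sdhc, a membrane anchor of complex II (0.542), and Sdha, its catalytic flavoprotein (0.739). Spearman's rho of span and ratio was -0.754 to -0.744 in ECs, -0.780 to -0.741 in fibroblasts, -0.798 to -0.695 in myeloid cells and -0.781 to -0.733 in pericytes, over 41 genes that share libraries and depth. At matched depth, in barcodes with 2000 to 4000 UMIs, short and long members were set apart as well. The 27 members under 10 kb had median EC to CM ratios of 1.18, 1.18, 1.17 and 1.21. Of these, 19 were above CMs in every library and 3 below. Of the 5 members of 10 to 20 kb, 2 were above and 1 below. The 9 members of 20 kb or more had median ratios of 0.809, 0.622, 0.843 and 0.702, with 0 above and 7 below in every library. Fewer members were thus above CMs than over all depths, and more were below. Both the span classes and the depth classes were applied after the levels had been seen.

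**Figure D3:**
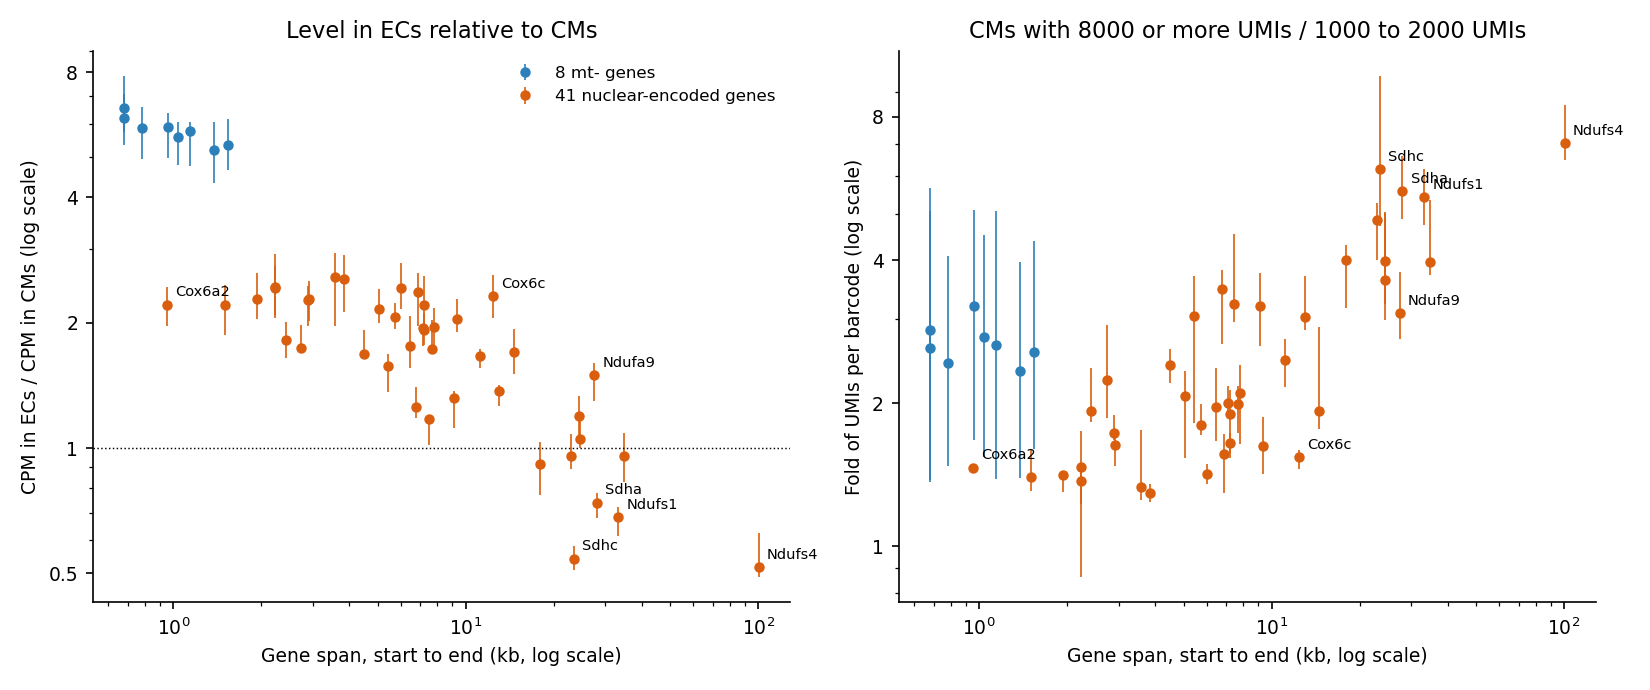
Each point is a gene, with its span from start to end (kb, log scale) against its CPM in ECs over that in CMs (left, log scale) and against the fold of UMIs per barcode between CMs with at least 8000 UMIs and CMs with 1000 to 2000 (right, log scale), as the median of 4 libraries with bars from lowest to highest. Ndufs4, the longest member with 100.5 kb, has the lowest ratio on the left (0.518) and the highest fold on the right (7.03).

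Ndufs4 lies on chr13:114287795-114388258 on the minus strand in GRCm38, and 97.3% of its span is intron. It was at 344, 356, 373 and 385 CPM in CMs and at 215, 179, 199 and 188 CPM in ECs. The 2 lineages did not overlap, and the libraries differed little. In CMs the 16 members grouped under complex I, Ndufa4 included, gave 17.4, 12.7, 20.5 and 17.2 UMIs per barcode. Short complex I members followed the pattern of the other short genes. Ndufa1, a small accessory subunit, was at 171, 91.4, 86.3 and 148 CPM in CMs and at 397, 259, 253 and 290.3 CPM in ECs.

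Complex II was the only complex with no member spanning under 5 kb. Its EC to CM ratios were also low within span classes. Sdhd had the lowest median ratio of the members of 5 to 10 kb (1.18). Sdhb had the lowest of those of 10 to 20 kb (0.917). In CMs complex II gave 4.46, 4.10, 6.53 and 4.44 UMIs per barcode, and in ECs 1.67, 1.09, 1.89 and 1.66. Sdha was the highest member in CMs, with 358, 336, 325 and 382 CPM against 280, 229, 251 and 270 CPM in ECs. Over barcodes of all depths only Sdhd, the shortest at 7.46 kb, was above CMs in all 4 libraries. At the matched depth used above, Sdhd too was below CMs in every library, with ratios of 0.976, 0.778, 0.755 and 0.796. In complex III all 6 members were above CMs in ECs in every library over all depths, from Uqcrc2, a core protein (median ratio 1.19), to Uqcr11 (2.55). At the matched depth Uqcrfs1, Uqcrq and Uqcr11 stayed above in every library. Uqcrc1, Uqcrc2 and Cyc1 did not, with lowest ratios of 0.963, 0.888 and 0.962. Uqcr11 was at 431, 219.8, 215 and 378 CPM in CMs, so sham 1 and RVVO 2 were high and sham 2 and RVVO 1 low.

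Complex IV passes electrons to oxygen. The 8 members grouped under it gave 20.4, 11.4, 18.9 and 19.2 UMIs per barcode in CMs. Cox6c, a structural subunit and its highest member, was at 729.98, 405, 408 and 695 CPM in CMs and at 1564, 1011, 1060.2 and 1428 CPM in ECs. Complex V gave 14.5, 10.2, 16.9 and 14.3 UMIs per barcode in CMs. Atp5a1, the alpha subunit of its catalytic head, was at 734, 558, 568 and 805 CPM in CMs and at 997, 713, 779.9 and 901 CPM in ECs. These values are over barcodes of all depths. At the matched depth used above, Atp5a1 was lower in ECs in every library, with ratios of 0.975, 0.842, 0.870 and 0.853. Cox6c and Slc25a4 stayed above CMs in every library at that depth. Slc25a4 was the highest nuclear member of all, with 1382, 864, 1023 and 1289 CPM in CMs and 2288, 1469, 1961 and 2138 CPM in ECs. It spans 4.49 kb on chr8:46206797-46211284 on the minus strand.

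Over barcodes of all depths the muscle forms had a higher CPM in ECs than in CMs. Cox6a2, the muscle form of a regulatory subunit of complex IV, spans 0.95 kb on chr7:128205435-128206387 on the minus strand. It was at 529.8, 286, 288 and 526 CPM in CMs and at 1098, 672, 703 and 1033 CPM in ECs. Its widely expressed partner Cox6a1 was at 84.9, 84.9, 73.9 and 113.0 CPM in CMs and at 80.6, 59.5, 56.0 and 78.1 CPM in ECs. Cox6a2 thus made up 86.2%, 77.1%, 79.6% and 82.3% of the UMIs of the pair in CMs and 93.2%, 91.9%, 92.6% and 93.0% in ECs. The share in ECs was higher by 11.4 ± 3.39 percentage points (SD, n = 4) and higher in 4 of 4 libraries (exact sign-flip test, p = 0.125). Fibroblasts, myeloid cells and pericytes had 91.6% to 93.9%. These shares were not taken at matched depth, and CM barcodes were deeper. Between the shallow and deep classes compared above, Cox6a1 rose by a median of 5.03 times in CMs and Cox6a2 by 1.46 times. In ECs these medians were 5.05 and 2.45 times. The part of depth in the gap between CMs and ECs was not tested. Cox6a1 itself was an exception among short genes, since its 3.34 kb gene had a median EC to CM ratio of 0.729.

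After thinning each barcode to 1000 UMIs, Cox6a2 was found in 46.9%, 30.03%, 30.5% and 45.8% of CMs and in 67.8%, 49.4%, 53.5% and 63.9% of ECs. Without thinning the shares were 91.4%, 75.8%, 90.3% and 91.9% of CMs and 90.6%, 71.2%, 87.6% and 91.7% of ECs. The thinned values left out 37, 122, 2 and 0 CMs and 186, 498, 9 and 0 ECs. For comparison, Tnni3, a CM gene, was found in 86.9%, 72.9%, 81.7% and 83.9% of thinned ECs. The thinned share for Cox6a2 was lower in CMs than in ECs in all 4 libraries, so it was not read as a sign of expression in either lineage. Ryr2 differed, with 99.3% to 99.7% of thinned CMs and 58.9% to 73.1% of ECs.

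The other pairs were closer to equal between lineages. Cox7a1 was at 329, 156, 152 and 230.1 CPM in CMs and at 723, 368, 399 and 470.3 CPM in ECs. Cox7a2 was at 227, 129, 139 and 225 CPM in CMs and at 461, 290.2, 295 and 437 CPM in ECs. The share of Cox7a1 in the pair was 59.2%, 54.9%, 52.2% and 50.6% in CMs, and it was higher in ECs by 2.38 ± 2.0 points. Cox8b was at 353, 171, 189.9 and 299 CPM in CMs and at 699.7, 421, 463 and 561 CPM in ECs, and Cox8a at 99.0, 82.8, 73.9 and 115 CPM in CMs and 166, 117, 114 and 185 CPM in ECs. The Cox8b share was higher in ECs by 6.23 ± 4.01 points in 4 of 4 libraries. The shares of these pairs were not taken at matched depth either. Slc25a4 and Slc25a5, its widely expressed relative, gave a share that differed between ECs and CMs by 0.107 ± 0.518 points (exact sign-flip test, p = 0.75), less than the spread between libraries. Slc25a5 was at 55.8, 36.5, 49 and 61 CPM in CMs.

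**Figure D4:**
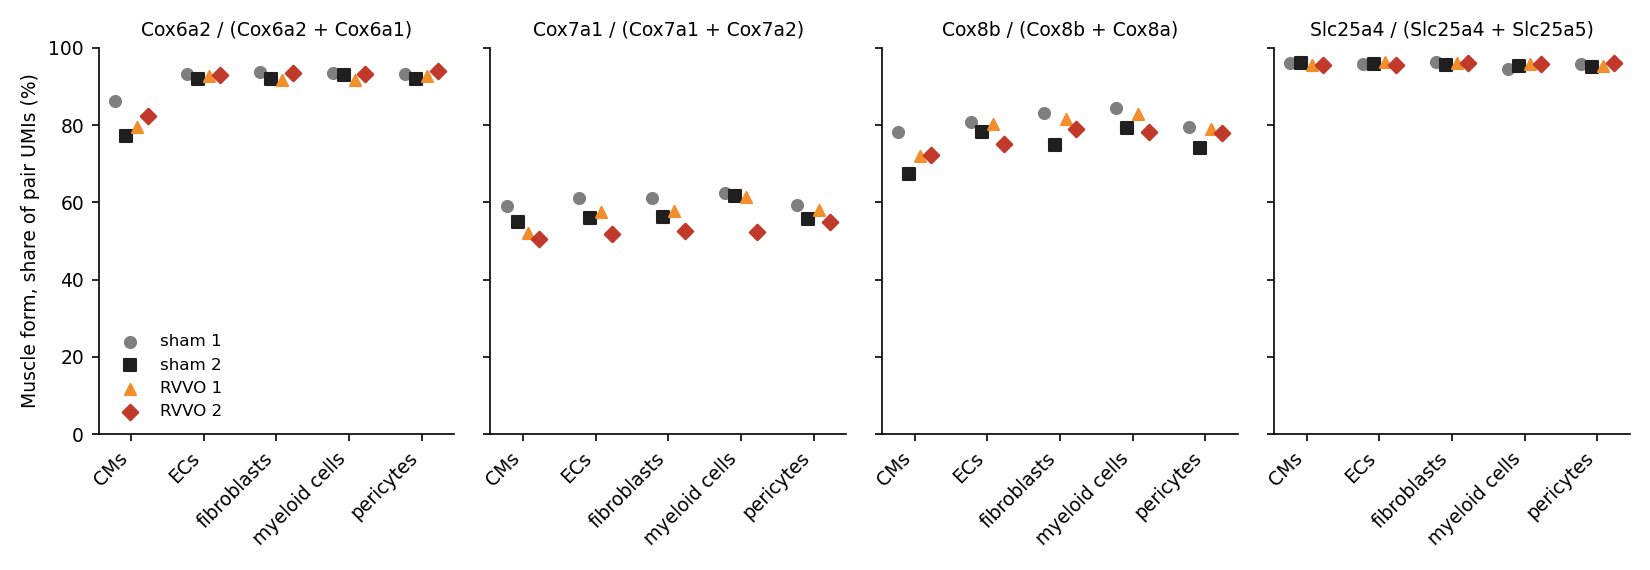
Share of the muscle form in the UMIs of each isoform pair (%), for 4 pairs in 5 lineages, with 1 point per library, over barcodes of all depths. For Cox6a2 the CM points lie from 77.1% to 86.2% and every other point lies from 91.6% to 93.9%.

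Among 45 further nuclear genes of the pathway that are not members, 43 were above CMs in ECs in every library and 2 below. A few of them had lineage patterns of their own. Cox4i2, an alternative form of subunit 4, was 51.4 times as high in pericytes as in CMs by the median of the libraries, and Ndufa4l2, a relative of Ndufa4, was 5.71 times as high in ECs. The 15 ribosomal protein and elongation factor genes taken as a cytoplasmic comparison were all above CMs in ECs, with medians of 3.13, 3.66, 3.45 and 2.76 times.

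The proportions of the 8 mt- members were compared in CMs, ECs, fibroblasts, myeloid cells and pericytes. These genes are transcribed from mitochondrial DNA as long precursors that are cut into single mRNAs. In CMs mt-Co1, the catalytic subunit of complex IV, was the highest, with 2139, 1624, 1303 and 1384 CPM, or 25.4%, 27.2%, 27.7% and 24.2% of the UMIs of the 8 genes. mt-Co3, another core subunit, was at 1738, 1236, 929 and 1211 CPM. mt-Co2, which takes electrons from cytochrome c, was at 1417, 992, 766 and 958 CPM. Sham 1 was the highest library for each of these genes and RVVO 1 the lowest. mt-Atp6, a subunit of the proton channel of complex V, was at 914, 596, 439 and 573 CPM, and mt-Cytb, the electron carrier of complex III, was at 842, 568, 460.1 and 565 CPM. The complex I genes were lower, with 598, 428, 353 and 458 CPM for mt-Nd4. mt-Nd1 was at 416, 284, 244 and 299.8 CPM. mt-Nd2 was at 345, 234, 215 and 271 CPM, the lowest of the 8. The largest gap in proportion between CMs and ECs, fibroblasts, myeloid cells or pericytes was 2.08, 2.63, 3.73 and 2.73 percentage points in the 4 libraries, and it was mt-Co1 each time. The proportion of mt-Atp6 was lower in CMs than in fibroblasts in every library. It was 10.9%, 10.0%, 9.33% and 10.0% of the UMIs of the 8 genes in CMs and 12.7%, 11.4%, 12.1% and 12.7% in fibroblasts.

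Barcodes with a higher mitochondrial share also had more of the nuclear members among their other UMIs. In ECs of sham 2 the nuclear members went from 0.865% of non-mitochondrial UMIs in barcodes under 0.5% mitochondrial to 2.99% in barcodes with 10% or more. In ECs of RVVO 2 they went from 1.64% to 3.86%. The 11 CM mRNAs rose in the same barcodes, from 1.07% to 3.83% in sham 2 and from 1.92% to 4.97% in RVVO 2. CMs of RVVO 2 went from 1.20% to 2.92% of nuclear members and from 2.19% to 4.46% of CM mRNAs between these classes.

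One set of barcodes was rich in both kinds of transcript. Of the 9557 barcodes left unnamed, 3173 were in clusters rich in mitochondrial UMIs, 2147, 456, 101 and 469 per library. They had 39.5%, 40.3%, 37.5% and 26.1% of UMIs from the mt- members and 4.37%, 3.61%, 3.76% and 5.43% from the nuclear members. Their nuclear members came to 78.5, 74.7, 117.6 and 138.3 UMIs per barcode, more than in CMs of the same library. Malat1 was at 0.490%, 0.674%, 0.531% and 0.839% of their UMIs, against 6.30% to 8.84% in CMs. The 6 long CM genes, led by Ryr2, were at 0.496%, 0.641%, 0.491% and 0.812%, against 4.92% to 5.55% in CMs. Of the 41 nuclear members 39 were above CMs in every library, and Ndufs4 was below in every library (median ratio 0.610). They were most numerous in sham 1, where 16.6% of all barcodes had at least 10% mitochondrial UMIs, against 5.21% to 5.65% in the other libraries.

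The design then compares RVVO with sham within each lineage. The mt- members were lower in RVVO in CMs, with 0.718% ± 0.173 in sham and 0.521% ± 0.0714 in RVVO (SD, n = 2 each), a difference of -0.197 points. The groups did not overlap, and the exact two-sided permutation test gave p = 0.33, the smallest p that 2 against 2 libraries allow. In ECs the values were 4.14% ± 0.863 and 2.96% ± 0.181, a difference of -1.18 points (exact p = 0.33). In myeloid cells they were 1.84% ± 0.426 and 1.36% ± 0.0723 (-0.473 points, exact p = 0.33), and in fibroblasts 1.41% ± 0.303 and 1.17% ± 0.0584 (-0.243 points, exact p = 0.6667), where the groups overlapped. No difference in mt- share could pass a threshold of 0.05 in this design.

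The nuclear members did not separate the groups. Their share was 1.11% ± 0.335 in sham and 1.11% ± 0.263 in RVVO CMs, a difference of -0.00456 points (exact permutation p = 1.0). In ECs the difference was -0.0540 points, in fibroblasts -0.00363 and in myeloid cells -0.429 (exact permutation p = 1.0 each). Sham 1 and RVVO 2 were high and sham 2 and RVVO 1 low in CMs, ECs and fibroblasts, so the libraries within a group differed by more than the groups. Leaving out sham 1 turned the CM difference to 0.233 points and leaving out RVVO 1 turned it to 0.182, so single libraries decide its direction.

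The depth of the barcodes differed between the groups, so shares were also taken within depth classes. Among ECs with 2000 to 4000 UMIs the mt- share was 3.74%, 3.31%, 2.10% and 2.66% (-1.15 points, exact permutation p = 0.33). With 4000 to 8000 UMIs it was 7.83%, 6.19%, 4.2% and 4.19%. The RVVO ECs were below the sham ECs in all 4 classes compared. In CMs with 1000 to 2000 UMIs the groups overlapped, with 1.19%, 1.47%, 1.46% and 0.847%, and in CMs with 2000 to 4000 UMIs they differed by -0.0844 points. CMs with 4000 to 8000 UMIs had 0.889%, 0.740%, 0.519% and 0.604%. With 8000 UMIs or more the groups overlapped, at 0.754%, 0.276%, 0.426% and 0.394%. They also overlapped in every fibroblast class compared and in myeloid cells with 4000 to 8000 UMIs. Myeloid cells with 1000 to 2000 and 2000 to 4000 UMIs were lower in RVVO without overlap. The nuclear members in CMs of 2000 to 4000 UMIs were at 2.0%, 1.23%, 1.62% and 1.83%, a difference of 0.107 points (exact permutation p = 1.0).

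Each member was tested on counts summed per library with edgeR's quasi-likelihood test, adjusted by Benjamini-Hochberg over all genes. In CMs 0 of 49 members were called at an adjusted p under 0.05, where 0.0484% of the 14472 genes tested were called (7 genes: Xist, Tsix, Uty, Ddx3y, Eif2s3y, Kdm5d and Snx17). At an unadjusted p under 0.05 the count was 4 members and 5.92% of all genes. ECs had 0 members called, against 0.353% of all genes, with 5 members and 8.80% of genes at an unadjusted p under 0.05. Fibroblasts had 0 members called, against 0.0681% of genes, and myeloid cells had 0, against 0.111%. In both, 0 members had an unadjusted p under 0.05, against 3.71% and 6.25% of genes. DESeq2 also called 0 members in each of these lineages, while it called 72, 229, 46 and 18 genes in all.

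Although none passed the test, the 8 mt- members had log2 fold changes below 0 in all 4 lineages. The median over the 8 was -0.53 in CMs, -0.57 in ECs, -0.29 in fibroblasts and -0.48 in myeloid cells, where the median of all genes was 0.00, -0.01, 0.01 and -0.01. In CMs mt-Atp6 had -0.64 ± 0.24 (SE) and mt-Co1 -0.54 ± 0.18, with edgeR adjusted p of 0.826 and 0.791. mt-Nd2 was nearest to 0 at -0.31 ± 0.22. In ECs mt-Cytb had the lowest edgeR adjusted p of the members, 0.397, with -0.64 ± 0.22. These directions rest partly on sham 1. Without it 7 of 8 were below 0 in CMs (median -0.22), 8 in ECs (-0.29), 4 in fibroblasts (-0.0061) and 7 in myeloid cells (-0.13).

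The nuclear members lay closer to 0. In CMs 32 of 41 had a value below 0, with a median log2 fold change of -0.08. The count was 39 of 41 in ECs (median -0.12), 27 of 41 in fibroblasts (-0.04) and 41 of 41 in myeloid cells (-0.39). With total counts as the only scaling the count in CMs was 24 and in ECs 24. Without sham 1 the median in CMs was 0.31 and without RVVO 1 it was 0.12, against -0.34 without sham 2 and -0.31 without RVVO 2. Without sham 1 the median also turned to 0.23 in ECs, with 40 of 41 above 0, to 0.40 in fibroblasts, with 41 of 41, and to 0.18 in myeloid cells, with 33 of 41. Without RVVO 1 the median in fibroblasts was 0.16. With barcodes of at least 2000 UMIs, 24 of 41 in ECs, 27 in fibroblasts and 25 in myeloid cells were above 0. The nuclear members thus had no stable direction. In myeloid cells the 11 CM mRNAs also lay below 0 in 11 of 11 (median -0.36), as did 15 of 15 ribosomal genes (-0.32), while the 6 long CM genes lay above 0 in 6 of 6 (0.44). Their part in the values of the members was not tested.

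Single nuclear members in CMs ranged from -0.41 to 0.07. Cox7a1 had the lowest value, -0.41 ± 0.38 (SE; edgeR adjusted p = 0.921), followed by Atp5g3, a subunit of the proton channel of complex V (-0.23 ± 0.34), and Ndufa1 (-0.23 ± 0.36). Cox7b (0.07 ± 0.29) and Cox5a (0.07 ± 0.28) of complex IV and Ndufb10 of complex I (0.07 ± 0.23) had the highest. Atp5g3 was at 433, 224, 239.5 and 346 CPM in CMs, Cox7b at 524, 323, 369.7 and 559 CPM, Cox5a at 337, 222, 239 and 373 CPM and Ndufb10 at 145, 100.2, 113 and 155 CPM. In each of them a sham and an RVVO library were high together, and the groups overlapped. The standard errors of long members were smaller, with 0.06 ± 0.11 for Ndufs4 and -0.03 ± 0.13 for Sdha. The other named members had -0.02 ± 0.25 (Slc25a4), -0.07 ± 0.38 (Cox6a2), -0.17 ± 0.38 (Cox8b), -0.11 ± 0.35 (Cox6c), -0.20 ± 0.38 (Uqcr11) and 0.02 ± 0.21 (Atp5a1).

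**Figure D5:**
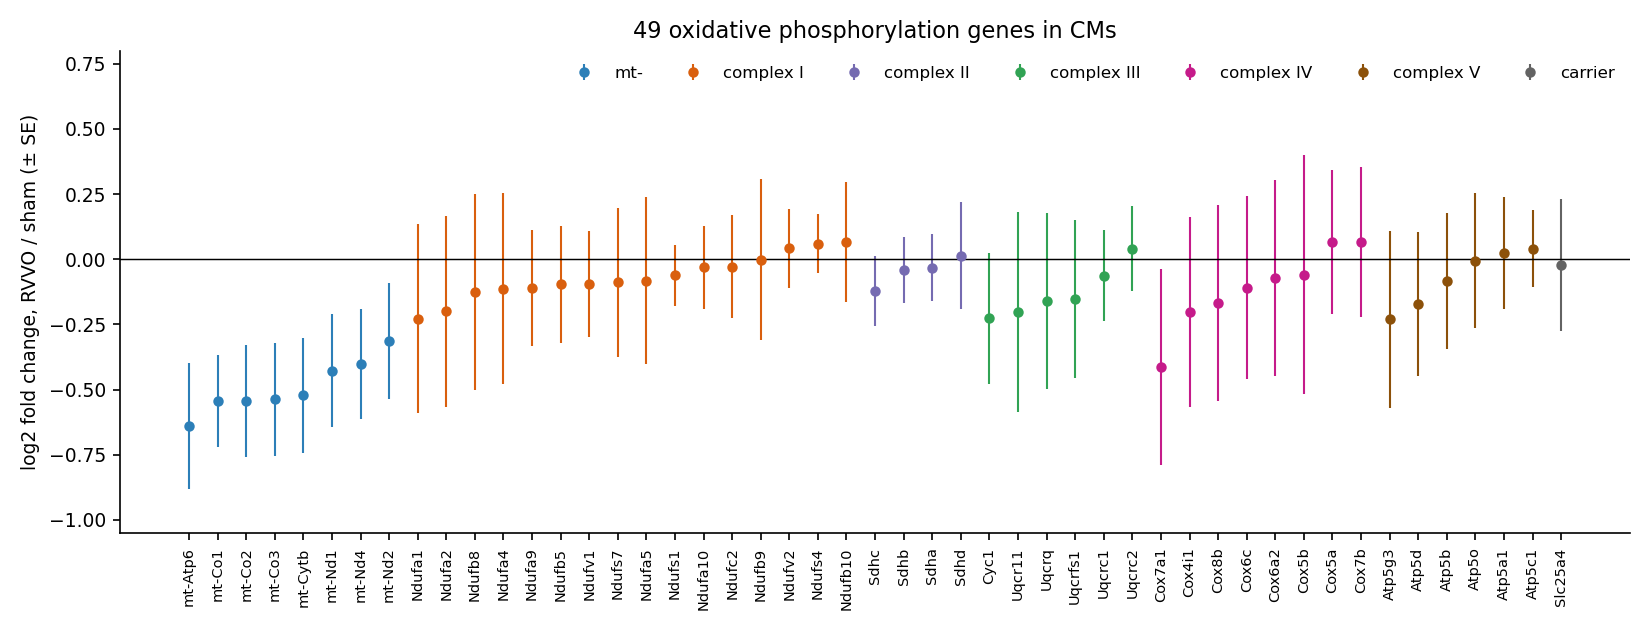
Log2 fold change of RVVO over sham in CMs with its standard error, for each of the 49 genes, grouped by mt- genes and by complex. The 8 mt- genes lie from -0.64 to -0.31 and the 41 nuclear-encoded genes from -0.41 to 0.07, and none was called.

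Genes around the pathway gave no call either. Of the 45 further nuclear genes of the pathway 0 were called in CMs and 32 had a value below 0 (median -0.05). The 17 genes listed under mitochondrial biogenesis, only some of which control transcription, had 0 calls and 12 values below 0 (median -0.13). Ppargc1a, their best known coactivator, was at 10370.0, 10558, 4748 and 8775 CPM in CMs, with a log2 fold change of -0.70 ± 0.28 (edgeR adjusted p = 0.841). Its groups did not overlap, and RVVO 1 was far below the rest.

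A last test asked whether the RVVO difference was alike in CMs and ECs. The interaction was not called for any of 49 members, 0 of them had an unadjusted p under 0.05, and 0.0201% of 14951 genes were called (6.78% at an unadjusted p under 0.05). DESeq2 called 0 members. The median difference of the mt- members was -0.06 on the log2 scale, ECs minus CMs, and that of the nuclear members -0.04. Single libraries decided these signs, with -0.24 and -0.16 without RVVO 1 and 0.13 and 0.08 without RVVO 2. Without doublet removal the mt- value was 0.32. Differences of this size were not detectable at this depth and number of libraries.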

How the data were processed

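Nuclei of frozen RVs were profiled by 10x 3′ snRNA-seq. The authors deposited UMI counts per gene and barcode, not normalized, 1 matrix per library. The file header names Cell Ranger 5.0.0, whereas the submitters' processing notes list Cell Ranger 3.0.1, STAR, Seurat 3.0.2 and GRCm38; the sources used here do not state whether introns and strand were counted.

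Barcodes with at least 200 genes were log-normalised, reduced to 2000 variable genes (members left out) and 30 principal components, and clustered by Leiden at resolution 1, with sub-clusters at 0.5 (scanpy 1.11.5). The barcodes with the highest Scrublet scores were then removed as doublets, at an assumed rate of 0.8% per 1000 barcodes of a library. A sub-cluster took the name of its best marker list, given a score of 0.4 or more and 3 or more detected markers. It stayed unnamed if another, unrelated class reached 0.45 of the best score, or 0.3 for the CM class. It also stayed unnamed if its median UMIs were over 5 times that of all barcodes, or under 0.5 of it without a leading marker of its own. Lineages were thus selected partly on CM marker scores and on depth. These thresholds were set after the clusters were seen, so shares may differ with other names. No mitochondrial filter was applied, since it selects on the members. Members and lists were chosen with earlier results of these data known.

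Counts were summed per library and lineage. Members were tested with edgeR 4.0.16 (quasi-likelihood, TMM, filter on low counts, Benjamini-Hochberg over all genes) under R 4.3.3, with DESeq2 1.42.0 as an alternative. Shares were compared by exact permutation tests, and lineages within libraries by exact sign-flip tests. Sign-flip tests, span classes and depth classes were added after the data were seen. In simulated counts a log2 change of 2 was recovered for 83%, 92%, 92%, 73% and 39% of genes in CMs (14262 genes), ECs (13253), fibroblasts (12995), myeloid cells (9962) and the interaction (14241). A log2 change of 1 was recovered for 32%, 48%, 39%, 20% and 4%, and 4.12% to 14.8% of the calls were false. For the lineages the spread of each gene between libraries was estimated from the data. For the interaction the same fixed spread was set for every gene, so its values cannot be compared with those of the lineages. Gene spans are from GENCODE for GRCm38 and promoters from RefSeq for GRCm38.p6. Every member could be named. Values in every library are given for the 8 mt- genes, the isoform pairs, the highest member of each complex in CMs and the 3 highest and 3 lowest nuclear members by log2 fold change in CMs. Replicate numbers were given to both groups by the labels, but nothing says that they mark a shared litter or day.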

Additional observations from a re-analysis of the deposited data

How the results depend on the processing

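The mean mt- share stayed lower in RVVO in all 4 lineages under every setting tried. The separation of the libraries by group did not always hold. With barcodes of at least 2000 UMIs the groups overlapped in CMs, at 0.828%, 0.560%, 0.466% and 0.567%. They also did in myeloid cells, at 2.13%, 1.16%, 1.32% and 1.45%. Outside the depth classes, the other settings kept the groups apart in both lineages. The size of the difference did not hold. The difference in CMs ran from -0.548 without doublet removal to -0.128 with barcodes under 10% mitochondrial, in ECs from -1.80 with at least 2000 UMIs to -0.382 under 5%, in fibroblasts from -0.821 to -0.0760 and in myeloid cells from -0.909 to -0.260, the lower ends of both with each barcode named on its own and the upper ends under 5% and with at least 2000 UMIs. Depth classes are given in the report and not counted in these ranges. The direction of the nuclear share, whose differences were small against the spread between libraries, did not hold. In CMs it was 0.0362 points with barcodes of at least 2000 UMIs, 0.00380 with each barcode named on its own, and 0.0417, 0.107, 0.1004 and 0.0715 in the 4 depth classes from 1000 UMIs up. In ECs it was 0.142 with at least 2000 UMIs and 0.0619, 0.192 and 0.127 in the first 3 classes. In fibroblasts these values were 0.0888, and 0.106, 0.132 and 0.155. In myeloid cells they were 0.0239, and 0.105 and 0.132 in the classes from 2000 to 8000 UMIs. The cause was not tested. Among single genes in CMs, Slc25a4 had 0.042 with total counts, 0.0157 with the replicate block and 0.0297 with at least 2000 UMIs, Sdha had 0.0268 with total counts, and Atp5a1 had -0.0058 without doublet removal and -0.0115 after thinning.

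Leaving out 1 library at a time moved the mt- share difference from -0.319 to -0.0746 points in CMs, -1.79 to -0.574 in ECs, -0.457 to -0.0282 in fibroblasts and -0.775 to -0.172 in myeloid cells. The nuclear share ranged from -0.242 to 0.233, -0.472 to 0.364, -0.371 to 0.363 and -1.0497 to 0.191. In ECs Cox7a1 had a log2 value of -0.86 without sham 2, where sham 1 alone stood for its group, against -0.43 with all libraries. In CMs the log2 values ran from -0.21 to 0.26 for Atp5a1, -0.64 to 0.34 for Atp5g3, -0.25 to 0.42 for Cox5a, -0.53 to 0.46 for Cox6a2, -0.50 to 0.40 for Cox6c, -0.86 to 0.24 for Cox7a1, -0.25 to 0.48 for Cox7b, -0.61 to 0.47 for Cox8b, -0.63 to 0.31 for Ndufa1, -0.19 to 0.37 for Ndufb10, -0.12 to 0.0557 for Sdha, -0.34 to 0.38 for Slc25a4, -0.62 to 0.39 for Uqcr11 and -0.58 to 0.0127 for mt-Nd2.

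The replicate numbers were tried as a replicate block. Deviations of same-numbered libraries in CMs correlated at 0.0163 over 14472 genes. A correlation over all these genes cannot show whether same-numbered libraries share a litter or day, and this was not tested further. The block called 0 members in each comparison, and 7, 39, 12 and 13 genes in CMs, ECs, fibroblasts and myeloid cells, and 172 genes against 3 for the interaction. Without the filter on low counts 21, 175, 121, 152 and 220 genes were called in these comparisons, and DESeq2 called 72, 229, 46, 18 and 33. In ECs total counts gave 111 genes, thinning 111 and naming of single barcodes 23. With 2 libraries per group no share test could pass 0.05, and small changes of single members are beyond the depth of these data.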

Other observations

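Barcodes rich in haemoglobin transcripts were left out of the comparisons. They numbered 20, 30, 155 and 3 in sham 1, sham 2, RVVO 1 and RVVO 2, and the mt- members made up 30.04%, 21.7%, 41.9% and 20.4% of their UMIs. In fibroblasts with 2000 to 4000 UMIs the 9 long nuclear members were all below CMs of the same depth in 4 of 4 libraries, with median ratios of 0.711, 0.600, 0.742 and 0.624, whereas the members under 10 kb had medians of 0.984, 0.905, 0.973 and 1.0.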
